A study of Mus musculus with 3 samples.

Results

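The Hox genes are the 39 genes of the deposited feature list whose symbol is Hox followed by a cluster letter from a to d and a number, out of 32285 genes in all. They comprise 11 Hoxa, 10 Hoxb, 9 Hoxc and 9 Hoxd genes, and the choice used the symbols only, not any measured value. Their transcripts were followed in single cells of the femoral fracture callus, the repair tissue that forms around a broken bone, at day 7 after surgery. The animals were female C3H/HeJ mice aged 9 weeks, a strain described as healing fractures slowly, whose pinned femur had been broken at midshaft. Every animal received a daily injection under the skin, and the samples were 3 libraries, with 1 library per group. The YKL group received YKL-05-099, an inhibitor of the salt-inducible kinases, at 15 mg/kg. The PTH group received PTH 1-34, an active fragment of parathyroid hormone, at 100 µg/kg. The control group received the PBS vehicle. The labels do not state how many animals went into a library, so no difference between libraries has a replicate check and no p-value was computed.

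Hox genes encode homeodomain transcription factors that mark position along the body axis and along the limb. They sit in 4 clusters, named Hoxa to Hoxd, and genes with the same number in different clusters are paralogs. The order of the genes along a cluster follows their order of activation, with low numbers toward the head and high numbers toward the tail and the tip of the limb. In the mouse hindlimb, paralog group 10 is required for the upper segment, which holds the femur, group 11 for the middle segment and group 13 for the foot. Adult mesenchymal cells are known to keep part of the Hox pattern of the place in the embryo from which they came.

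The clusters lie on chromosomes 6 (Hoxa), 11 (Hoxb), 15 (Hoxc) and 2 (Hoxd) of the mouse build GRCm38. RefSeq promoter entries (build GRCm38.p6) were matched by symbol for 22 of the 39 members. The 250 bases before the annotated start are shown for Hoxa9 and Hoxa10, which belonged to the group that led in mesenchymal cells, and for Hoxd4 and Hoxd8, which led in endothelial cells. Capitals mark matches on either strand to the GC box (GGGCGG), the CCAAT box (CCAAT) or the TATA box (TATAAA).
Hoxa9, chr6:52227371-52227620, minus strand: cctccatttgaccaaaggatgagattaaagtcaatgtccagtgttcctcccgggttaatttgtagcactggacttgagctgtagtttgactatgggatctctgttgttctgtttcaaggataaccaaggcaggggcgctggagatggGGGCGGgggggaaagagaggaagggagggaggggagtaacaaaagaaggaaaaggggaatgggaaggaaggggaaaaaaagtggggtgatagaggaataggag
Hoxa10, chr6:52240855-52241104, minus strand: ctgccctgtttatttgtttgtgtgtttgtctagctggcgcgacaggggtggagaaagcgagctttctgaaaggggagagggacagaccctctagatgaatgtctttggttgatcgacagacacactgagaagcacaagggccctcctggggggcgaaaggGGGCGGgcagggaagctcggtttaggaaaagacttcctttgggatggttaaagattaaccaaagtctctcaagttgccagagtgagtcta
Hoxd4, chr2:74721728-74721977, plus strand: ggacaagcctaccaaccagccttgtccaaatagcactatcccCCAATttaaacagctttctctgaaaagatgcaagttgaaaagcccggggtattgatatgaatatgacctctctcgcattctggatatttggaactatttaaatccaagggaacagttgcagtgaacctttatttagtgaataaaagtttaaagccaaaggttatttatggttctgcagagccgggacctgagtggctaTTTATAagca
Hoxd8, chr2:74704365-74704614, plus strand: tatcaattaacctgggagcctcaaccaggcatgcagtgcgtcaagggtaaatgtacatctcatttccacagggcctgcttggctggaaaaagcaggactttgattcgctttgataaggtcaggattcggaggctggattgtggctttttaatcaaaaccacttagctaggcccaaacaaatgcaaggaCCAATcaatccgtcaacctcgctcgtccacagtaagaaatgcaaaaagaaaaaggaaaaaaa
The Hoxa9 and Hoxa10 windows each held 1 GC box and none of the other motifs. The Hoxd8 window held 1 CCAAT box, and the Hoxd4 window held 1 CCAAT box and 1 TATA box. The motif TGATTNAT, which Hox and Pbx proteins bind together, was in none of these windows. Of all 32851 promoter entries of the same length, 32.7% held a GC box, 33.8% a CCAAT box, 12.4% a TATA box and 2.82% the Hox-Pbx motif. The searched motifs do not overlap each other in their letters. These matches describe letters and show no binding. Hoxa10 had 2 entries, and the one nearest the annotated start of the gene is shown. The Hoxa9 and Hoxd4 windows lie inside the longer extents annotated for these genes in the build used for counting (chr6:52223100-52231089 for Hoxa9 and chr2:74711929-74729160 for Hoxd4).

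The libraries held 1500 (YKL), 5286 (PTH) and 8021 (control) barcodes with 19424073, 33981167 and 55250651 UMIs, where a UMI (unique molecular identifier) stands for 1 captured RNA molecule. After filters on detected genes and mitochondrial UMIs, 603 YKL, 1912 PTH and 2908 control cells remained, at a median of 25813 UMIs per YKL cell, 12290.5 per PTH cell and 11647 per control cell. The YKL library was the smallest and the deepest per cell. The libraries shared 2 (YKL and PTH), 3 (YKL and control) and 8 (PTH and control) barcodes, of which 0, 0 and 1 were among the kept cells.

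Clusters were named from marker lists, and each name below stands for an X-like class. Endothelial-like cells (vessel lining) numbered 52 in the YKL, 302 in the PTH and 187 in the control library, and mural-like cells (the contractile cells around vessels) 8, 60 and 75. Tendon-like cells numbered 2, 233 and 4, so this class was almost all from the PTH library and that library and the type cannot be told apart. Fibroblast-like cells numbered 17, 276 and 109, osteoblast-like cells 10, 36 and 27, and chondrocyte-like (cartilage) cells 385, 674 and 1543. The summed level of the 10 endothelial markers was 11311 (YKL), 9634 (PTH) and 8528 (control) CPM (UMIs per 1000000 UMIs of the class) in endothelial cells, against 10.4, 20.04 and 16.9 CPM in chondrocytes. The osteoblast class carried its own markers at 46102 (PTH) and 29393 (control) CPM summed, beside chondrocyte markers at 11031 and 15751 CPM, so it was not free of cartilage transcripts. Its erythroid markers summed to 16071 and 31397 CPM, and their part in its Hox values was not tested. Classes of at least 15 cells in a library are described, which gives 14 class and library combinations, and classes of at least 50 cells are compared. The YKL mural, tendon and osteoblast cells and the control tendon cells were too few to describe. Unnamed clusters entered no class, so the cartilage and bone values leave them out. Cluster 5, led by Ibsp, Panx3 and Smpd3, held 53 YKL, 58 PTH and 43 control cells. Its Hox genes summed to 176, 257 and 191 CPM. Cluster 16, led by Top2a and Cenpf, had 322 CPM in PTH and 281 CPM in control. Cluster 17, led by Col10a1 and Ucma, had 153 CPM in 98 control cells.

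Of the 39 Hox genes, 35 had at least 1 UMI in the kept cells, and the 6 classes together held 14482 Hox UMIs. Over the 6 classes, 22 members reached 50 UMIs, 12 had 1 to 49 UMIs and 5 had none. The 5 without a UMI were Hoxa13, Hoxb13, Hoxc12, Hoxd11 and Hoxd12, all from the 5′ ends of their clusters, the ends tied to the tail and the limb tip. A count of 0 over 62537571 UMIs allows a level of up to 0.048 CPM. Haematopoietic cells (macrophage-, osteoclast-, neutrophil-, T/NK- and B-like cells, 52 YKL, 138 PTH and 565 control cells) were used as the background, taken as free RNA. Whether these cells also transcribe Hox genes was not tested, and for any such gene the background would be too high. Hoxb4 was their most abundant member, in PTH jointly with Hoxa7 and Hoxc10. It had 6.27 CPM in YKL, 4.004 CPM in PTH and 2.97 CPM in control haematopoietic cells. A member was taken as above this background where it had at least 5 UMIs and its ratio to the haematopoietic level of the same library had a 95% interval above 1. By that rule 24 members were above background in at least 1 of the 14 combinations. A further 10 members had UMIs in the 6 classes and were never above background, among them Hoxa6 and, with fewer UMIs, Hoxa2, Hoxa4 and Hoxd10. Hoxa7, which patterns the trunk, was the 1 member above background in all 14 combinations. The haematopoietic cells held 797922 UMIs in YKL, 1248747 in PTH and 2694718 in control. A member with 0 UMIs in them could still fail the rule for lack of depth. All intervals given here cover counting error only, and not the spread between animals.

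**Figure D1:**
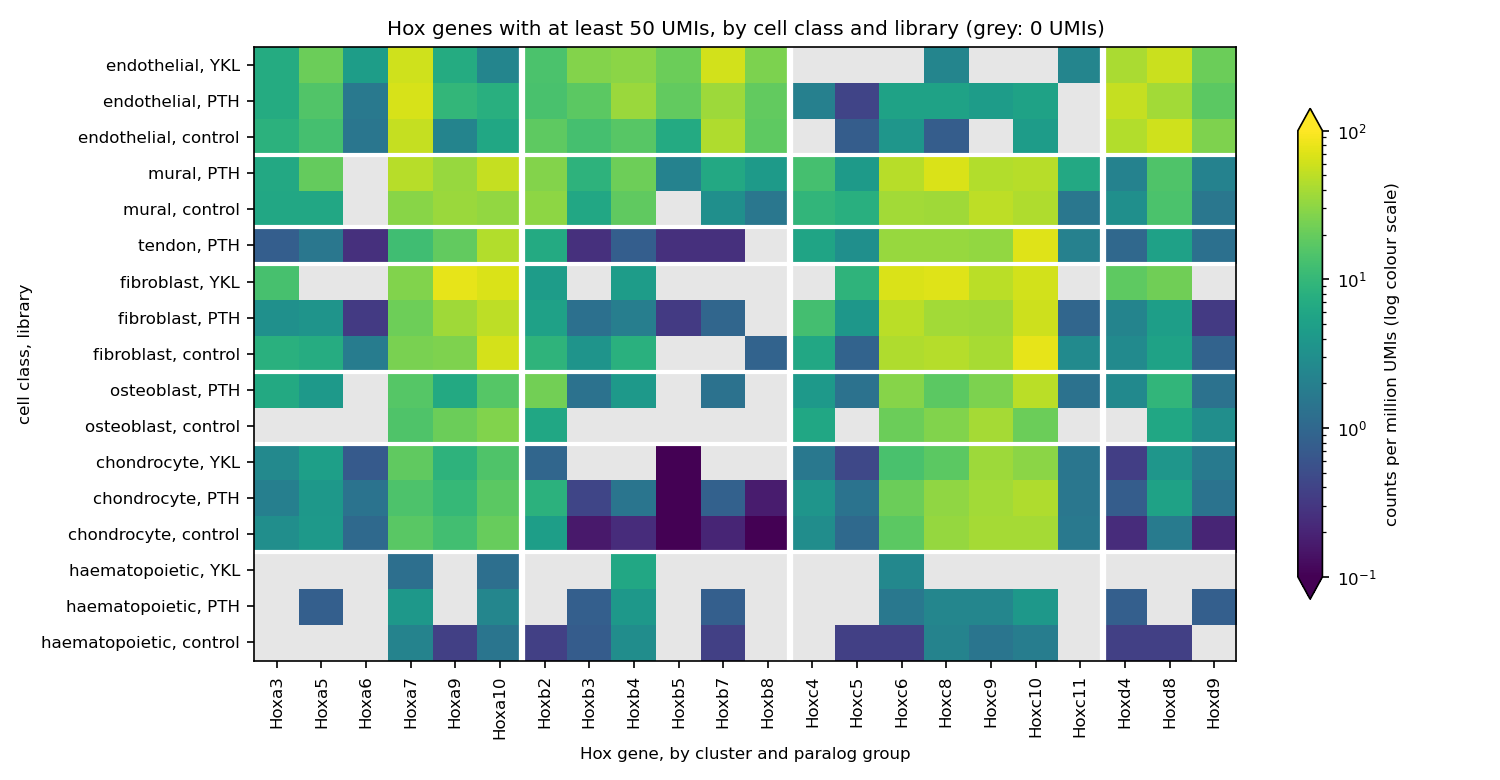
Level of each of the 22 Hox genes with at least 50 UMIs (columns, ordered by cluster and number) in each class and library (rows), as CPM of summed UMIs on a log colour scale, with grey for 0 UMIs. Hoxc6 to Hoxc10 are bright in the mural, tendon, fibroblast, osteoblast and chondrocyte rows and dark or grey in the endothelial rows, where Hoxd4, Hoxd8 and the Hoxb genes are bright.

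Summed over all 39 members, Hox transcripts were most abundant per total RNA in mural, endothelial and fibroblast cells and lower in cartilage. The summed level was 433 CPM (interval 373 to 500) in YKL, 411 CPM (386 to 437) in PTH and 367 CPM (335 to 401) in control endothelial cells. Mural cells had 494 CPM (432 to 562) in the PTH and 389 CPM (342 to 440) in the control library. Fibroblasts had 500 CPM (411 to 602) in YKL, 336 CPM (316 to 358) in PTH and 386 CPM (351 to 425) in control. In the control library the intervals of these 3 classes overlapped, and in the PTH library the fibroblast interval lay below the other two. PTH tendon cells had 285 CPM (269 to 303). Osteoblasts had 229 CPM (196 to 266) in the PTH and 196 CPM (152 to 250) in the control library, and these intervals overlapped those of cartilage in the same libraries. Chondrocytes had 160 CPM (153 to 167) in YKL, 215 CPM (206 to 223) in PTH and 204 CPM (198 to 210) in control. Haematopoietic cells had 11.3, 25.6 and 16.0 CPM in YKL, PTH and control, below every mesenchymal and endothelial value.

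**Figure D2:**
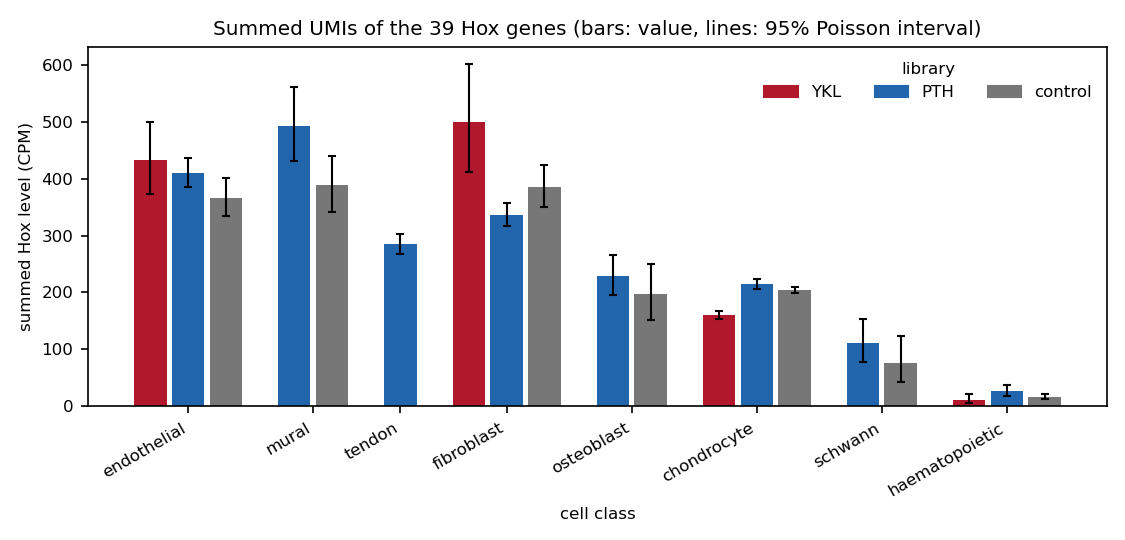
Summed level of all 39 Hox genes in CPM (vertical axis, from 0) by class, with 1 bar per library and its exact Poisson 95% interval as a line. Schwann-like cells are shown beside the described classes. Chondrocytes lie between 160 and 215 CPM and haematopoietic cells between 11.3 and 25.6 CPM.

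In cartilage most of the Hox signal came from a small set of Hoxc and Hoxa genes. Hoxc10, Hoxc9, Hoxc8, Hoxc6, Hoxa10, Hoxa7 and Hoxa9 held 87.6% of the Hox UMIs of YKL, 83.1% of PTH and 88.0% of control chondrocytes. The Hoxc cluster is known for patterning the trunk and hindlimb, and Hoxa9 and Hoxa10 for the proximal limb. Because the 3′ method counts 1 tag per molecule and not per length, levels of different genes below are CPM without a length correction.
Hoxc10, which helps pattern the hindlimb skeleton and its motor neurons, had 30.1 CPM in YKL, 44.2 CPM in PTH and 39.6 CPM in control chondrocytes. Hoxc9, a thoracic regulator, had 36.2, 38.8 and 39.1 CPM in YKL, PTH and control. Hoxc9 stood at a like level in the 3 libraries, and Hoxc10 was lowest in YKL.
Hoxc8, known for its part in vertebral and cartilage patterning, had 17.7, 31.8 and 33.7 CPM in YKL, PTH and control chondrocytes. Hoxc6 had 13.9, 21.2 and 17.5 CPM, Hoxa10 had 15.1, 17.6 and 19.8 CPM, and Hoxa7 had 18.6, 14.6 and 17.1 CPM in the same order. Hoxa9 had 8.65, 10.3 and 12.5 CPM. Within these genes Hoxc8 showed the widest spread, with the YKL library apart from the other two.
The remaining members reached at most 8.48 CPM in any chondrocyte library. Hoxb2, a regulator of hindbrain identity, had 0.981 CPM in YKL, 8.48 CPM in PTH and 4.74 CPM in control chondrocytes. Hoxa5 had 4.99, 4.03 and 4.09 CPM, Hoxd8 had 3.75, 5.40 and 1.78 CPM, Hoxa3 had 2.586, 1.970 and 2.999 CPM, and Hoxc4 had 1.61, 3.68 and 2.92 CPM. Hoxa6 had 0.713, 1.37 and 1.05 CPM and Hoxc5 0.446, 1.37 and 1.05 CPM in YKL, PTH and control chondrocytes, both not above background in cartilage. Hoxc11, of the group required for the middle limb segment, had 1.52, 1.54 and 1.62 CPM, nearly the same in the 3 libraries. Hoxb2, Hoxa5 and Hoxc4 were above background in 2 of the 3 chondrocyte libraries, and Hoxa3, Hoxd8 and Hoxc11 in 1. Hoxc10 and Hoxc5 share exon sequence on the same strand, as do Hoxd3 and Hoxd4, and 10 members overlap an exon on the opposite strand, so counts of these genes could have been split with their neighbours.

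Fibroblasts, tendon, mural and osteoblast cells carried leading genes shared with cartilage. The 7 most abundant members of cartilage were also the 7 most abundant in all 3 fibroblast libraries and in PTH tendon, PTH mural and control osteoblast cells. In control mural cells Hoxb2 stood in place of Hoxa7 among the leading 7, and in PTH osteoblasts in place of Hoxa9. In fibroblasts Hoxc10 had 63.1 CPM in YKL, 58.6 CPM in PTH and 77.5 CPM in control, Hoxa10 had 67.6, 49.8 and 63.9 CPM, and Hoxc6 had 67.6, 49.2 and 44.1 CPM. The YKL fibroblast values rest on 17 cells. In PTH tendon cells Hoxc10 was the most abundant member at 71.4 CPM, with Hoxa10 at 45.1 CPM and Hoxc8 and Hoxc6 both at 34.8 CPM. In mural cells Hoxc8 had 66.8 CPM in PTH and 37.3 CPM in control, Hoxc9 had 45.3 and 49.8 CPM, and Hoxa9 had 34.5 and 35.8 CPM. Hoxb genes held 15.7% and 15.6% of the Hox UMIs of PTH and control mural cells, against 2.88% and 5.59% in fibroblasts. Hoxb2 had 28.0 and 31.1 CPM in PTH and control mural cells, and Hoxb4, an anterior trunk gene, had 21.6 and 18.7 CPM. In osteoblasts Hoxc10 had 48.4 CPM in PTH and 21.2 CPM in control, and Hoxc9 had 25.5 and 39.3 CPM, from 36 and 27 cells.

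Endothelial cells carried another set. Hoxa7 had 60.5 CPM in YKL, 66.6 CPM in PTH and 54.8 CPM in control endothelial cells. Hoxd4 had 41.9, 55.1 and 44.9 CPM, and Hoxd8 had 58.2, 38.4 and 60.1 CPM in the same order. Hoxb7 had 62.9, 36.4 and 44.1 CPM. These 4 genes, whose promoters are shown above for Hoxd4 and Hoxd8, led in each of the 3 endothelial libraries.
Hoxb4 had 30.3, 35.1 and 16.7 CPM in YKL, PTH and control endothelial cells, Hoxb8 had 25.6, 19.2 and 18.3 CPM, and Hoxb3 had 27.9, 17.6 and 12.9 CPM. Hoxb5, which is known in the mouse as an early endothelial regulator of Flk1, had 21.0, 19.2 and 6.85 CPM, and Hoxd9 had 21.0, 17.6 and 26.6 CPM. Hoxc10 was at 0, 5.31 and 4.57 CPM and Hoxc9 at 0, 4.49 and 0 CPM in the same cells. In haematopoietic cells Hoxc10 was at 0 CPM in YKL, 4.004 CPM in PTH and 1.86 CPM in control, so the endothelial Hoxc10 level in the PTH library was near the background of that library.

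The split between lineages followed the gene clusters. Hoxc genes held 1.08% of the Hox UMIs of YKL, 5.57% of PTH and 2.70% of control endothelial cells, against 63.4%, 66.3% and 66.5% in chondrocytes of the same libraries. Hoxb genes held 44.6%, 38.3% and 35.5% of endothelial Hox UMIs, against 0.669%, 5.38% and 2.92% in chondrocytes. Hoxd genes held 29.0%, 27.7% and 36.9% in endothelial cells, against 3.85%, 4.47% and 1.43% in chondrocytes. The Hoxa share differed least between these classes, at 25.3%, 28.5% and 24.9% in endothelial cells and 32.1%, 23.8% and 29.1% in chondrocytes. The Hoxc share was 52.3% in YKL, 59.6% in PTH and 56.6% in control fibroblasts, 64.7% in PTH tendon cells, 47.2% in PTH and 48.4% in control mural cells, and 55.3% in PTH and 58.5% in control osteoblasts. The Hoxc cluster held the most Hox UMIs in each of the 11 combinations outside the endothelial class.

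By position along the clusters, paralog groups 9 and 10 held 9.68% of the Hox UMIs of YKL, 13.03% of PTH and 12.03% of control endothelial cells, against 57.3%, 52.3% and 54.8% in chondrocytes. The share was 51.4%, 54.4% and 54.1% in fibroblasts, 59.7% in PTH tendon cells, 37.6% in PTH and 42.0% in control mural cells. Groups 11 to 13 held at most 2.27% in any of the described combinations, a value reached in PTH tendon cells.

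**Figure D3:**
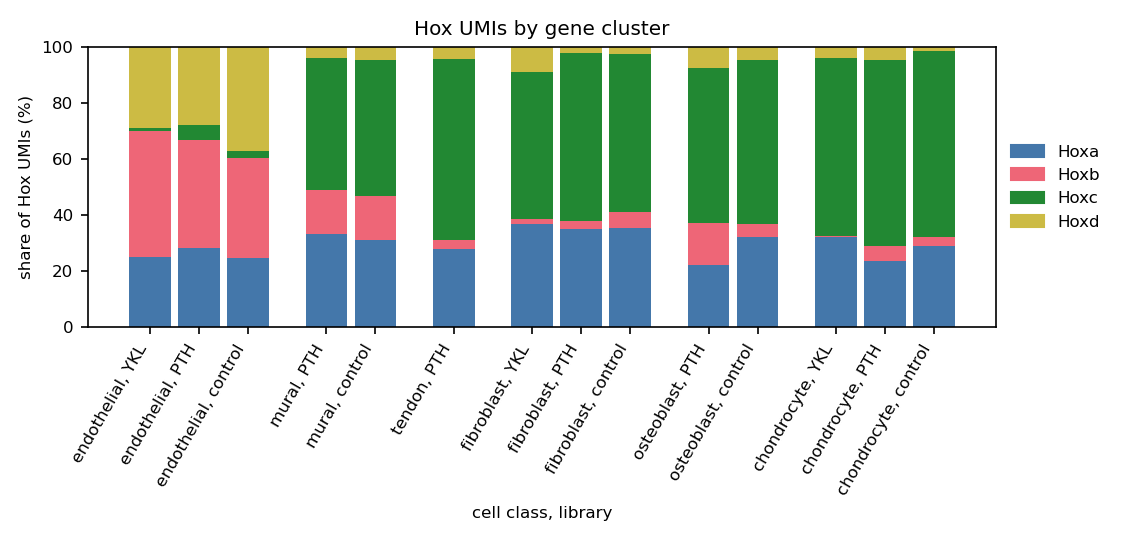
Share of the Hox UMIs (percent, stacked bars) that came from the Hoxa, Hoxb, Hoxc and Hoxd clusters, for each class and library. Hoxc genes hold 63.4% to 66.5% in chondrocytes and 1.08% to 5.57% in endothelial cells.

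The genes that led in either class of the summed counts were also counted per cell. Since they were chosen from the same counts, these shares describe how widely the transcripts were spread and are no independent support. Each cell was thinned to 2000 UMIs so that depth did not set the share. A UMI of Hoxd4, Hoxb5, Hoxb7 or Hoxb8 was then found in 22.7% of YKL, 24.1% of PTH and 19.4% of control endothelial cells, against 0.271%, 0.459% and 0% of chondrocytes and 0%, 0% and 0.229% of haematopoietic cells. In the other classes this share was at most 12.5%, in YKL fibroblasts (2 of 16 cells), with 5.17% in PTH and 2.70% in control mural cells. The 0% among 1501 control chondrocytes allows up to 0.245% (exact binomial interval). A UMI of Hoxc6, Hoxc8, Hoxc9 or Hoxc10 was found in 0%, 3.01% and 1.25% of endothelial cells, against 18.4%, 23.3% and 22.3% of chondrocytes. In haematopoietic cells this share was 0%, 2.54% and 0.458%, so in the PTH library the endothelial Hoxc share was near the background. In the control library it was higher than the haematopoietic share, from 2 cells in each class and with overlapping exact intervals, and Hoxc6 was above background there by the summed counts (5 UMIs). Without thinning, the Hoxd4, Hoxb5, Hoxb7 or Hoxb8 share was 55.8%, 56.3% and 42.2% in endothelial cells, and the Hoxc share 80.5%, 78.9% and 75.0% in chondrocytes. A UMI of any Hox gene was present after thinning in 54.5%, 58.6% and 48.1% of endothelial cells, 27.9%, 35.8% and 33.0% of chondrocytes, and 2.13%, 4.24% and 2.75% of haematopoietic cells. Across the 22 members with at least 50 UMIs, on log2(CPM + 1), Pearson's r between chondrocyte and fibroblast profiles was 0.89 to 0.94, and between chondrocyte and endothelial profiles -0.56 to -0.14. Mural and endothelial profiles gave -0.36 to 0.06. These correlations are across genes that share libraries and are given as a description.

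Ratios to chondrocytes were taken within each library, and a member was counted as higher or lower where it passed 2-fold in every library that held at least 50 cells of both classes. In endothelial cells 21 members had enough UMIs, of which 11 were higher and 4 lower than in chondrocytes. Of all genes compared by this rule, 20.9% were higher and 7.27% lower. The median log2 ratio was 1.86 over the 21 Hox genes and 0.39 over all 12509 genes. The 11 higher members were Hoxa3, Hoxa5, Hoxa7, Hoxb3, Hoxb4, Hoxb5, Hoxb7, Hoxb8, Hoxd4, Hoxd8 and Hoxd9, and the 4 lower ones Hoxa10, Hoxc8, Hoxc9 and Hoxc10. Hoxa3 rests on 3 UMIs in YKL endothelial cells. Hoxb7 was at least 235-fold higher in YKL endothelial cells against the floor of 3 counts per library, since chondrocytes had no UMI there. The exact interval of that ratio, which also covers the counting error of the 27 endothelial UMIs, starts at 178. The ratio was 42.4-fold higher (22.03 to 91.6) in PTH and 218-fold higher (88.2 to 696) in control. The ratio of Hoxd4 was 118 (38.7 to 477) in YKL, 71.5 (36.6 to 160) in PTH and 185 (80.0 to 523) in control. For Hoxd8 it was 15.5 (9.08 to 26.1), 7.12 (5.12 to 9.95) and 33.7 (23.0 to 49.9) in the same order. The ratios of Hoxa7 were smaller, at 3.26 (2.08 to 4.92), 4.57 (3.67 to 5.70) and 3.20 (2.46 to 4.12). Hoxc9 had no UMI in YKL and control endothelial cells, where against the floor of 3 counts per library it was at least 5.18-fold and at least 17.1-fold lower. The exact intervals of these ratios reach 0.238 in YKL and 0.0718 in control. In PTH its ratio was 0.116 (0.0574 to 0.209). Hoxc8 had ratios of 0.132 (0.00332 to 0.743), 0.167 (0.0881 to 0.289) and 0.0226 (0.000571 to 0.126) in YKL, PTH and control. After thinning as above, 7 of the 15 higher or lower members still had 50 UMIs. Of these, Hoxa7, Hoxd4 and Hoxd8 stayed above 2-fold in every library, with Hoxa7 lowest, at 2.10 (0.510 to 6.50) in YKL. The 4 lower members had 0 UMIs in thinned YKL endothelial cells. Their intervals reached 1.28 to 3.34, so that library could not decide. In PTH and control their ratios were at most 0.364 (Hoxa10 in PTH, 0.0925 to 1.04).

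The other mesenchymal classes differed less from cartilage. In fibroblasts, compared in the PTH and control libraries, 4 of 14 members were higher and 0 lower, against 19.2% higher and 7.35% lower of all genes. They were Hoxa9 with ratios of 3.62 (2.78 to 4.72) in PTH and 2.09 (1.38 to 3.07) in control, Hoxa10 with 2.82 (2.28 to 3.50) and 3.23 (2.48 to 4.15), Hoxc6 with 2.32 (1.89 to 2.86) and 2.52 (1.83 to 3.38), and Hoxc4 with 3.43 (2.16 to 5.41) and 2.16 (0.839 to 4.68). The interval of Hoxc4 in the control library spans 1. After thinning each cell to 2000 UMIs, 3 of these 4 genes still had 50 UMIs, and 0 passed in both libraries, with ratios of 1.70 in PTH and 3.21 in control for Hoxa10, 3.26 and 1.68 for Hoxa9, and 2.20 and 1.42 for Hoxc6. In mural cells 6 of 13 members were higher and 0 lower, against 18.5% higher and 7.62% lower of all genes (Hoxa3, Hoxa9, Hoxb2, Hoxc4, Hoxc6 and Hoxd8). Mural Hoxa3 rests on 3 PTH and 4 control UMIs, fewer than the 5 of the background rule. Hoxb2 had ratios of 3.31 (1.70 to 5.92) in PTH and 6.56 (3.87 to 10.6) in control mural cells, and Hoxd8 had 2.80 (1.08 to 6.11) and 7.85 (3.37 to 16.3). After thinning, 2 of these 6 genes still had 50 UMIs (Hoxa9 and Hoxc6), and both passed. In PTH tendon cells 1 of 11 members was higher and 1 lower, against 16.7% and 11.1% of all genes. Hoxa10 was 2.56-fold higher (2.08 to 3.15) and Hoxa5 had a ratio of 0.387 (0.135 to 0.906). Hoxa5 rests on 6 tendon UMIs and was not above background in these cells. After thinning, Hoxa5 no longer had 50 UMIs, and Hoxa10 still passed, at 2.51. Both tendon shares lay below those of all genes.

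Hoxd13, the gene of the Hoxd cluster tied to the digits, was rare and uneven. It had 17 UMIs in PTH tendon cells, 1, 18 and 7 UMIs in YKL, PTH and control chondrocytes, and 0 in all mural and endothelial cells. Among PTH tendon cells, 14 of 233 (6.01%, exact interval 3.32% to 9.88%) had a Hoxd13 UMI, against 16 of 674 (2.37%, 1.36% to 3.83%) PTH chondrocytes and 0 of 138 PTH haematopoietic cells, which allows up to 2.64%. Evx2, the gene next to Hoxd13 beyond the end of the cluster, had 12 UMIs in 11 PTH tendon cells and 2 UMIs in PTH chondrocytes, and 0 in the other described combinations. Only 2 tendon cells held both. Hoxd11 and Hoxd12, which lie between Hoxd13 and Hoxd10, had no UMI in the 6 classes. Tendon cells of the other libraries were too few for a comparison.

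Within cartilage, treatment and control were compared at a 1.5-fold threshold over genes with at least 50 UMIs in both libraries together. In YKL over control chondrocytes 1 of 13 members was higher and 3 were lower, against 10.6% higher and 10.3% lower of all genes. The Hox sum had a ratio of 0.785 (0.743 to 0.828). The median log2 ratio was -0.33 over the 13 members and -0.02 over all genes. Hoxb2 had a ratio of 0.207 (0.101 to 0.384), Hoxc8 0.524 (0.446 to 0.612) and Hoxc4 0.550 (0.309 to 0.932). Hoxd8 was higher, at 2.10 (1.34 to 3.28). Hoxc9 and Hoxa7 had ratios of 0.925 (0.822 to 1.04) and 1.08 (0.914 to 1.28).
Between PTH and control chondrocytes 2 of 13 members were higher and 1 lower, against 6.1% higher and 3.32% lower of all genes. Hoxd8 had a ratio of 3.03 (2.03 to 4.55), Hoxb2 1.79 (1.35 to 2.36) and Hoxa3 0.657 (0.393 to 1.06), whose interval spans 1. The Hox sum had a ratio of 1.05 (1.00 to 1.11). Hoxc10 stood at 1.12 (1.00 to 1.24) and Hoxc9 at 0.991 (0.884 to 1.11).
The 2 comparisons share the control library, which had the lowest Hoxd8 level of the 3. Hoxd8 was above background in 1 of the 3 chondrocyte libraries, so each of its ratios had a side not above background. It had 0, 0 and 1 UMIs in YKL, PTH and control haematopoietic cells, so failing the rule does not place its level at background. Hoxb2 was above background in 2 of the 3. In YKL over PTH chondrocytes 0 of 12 members were higher and 4 lower, against 7.42% and 8.47% of all genes, and they were Hoxb2 at 0.116 (0.0559 to 0.216), Hoxc4 at 0.436 (0.237 to 0.772), Hoxc8 at 0.556 (0.465 to 0.662) and Hoxc6 at 0.658 (0.535 to 0.807).

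**Figure D4:**
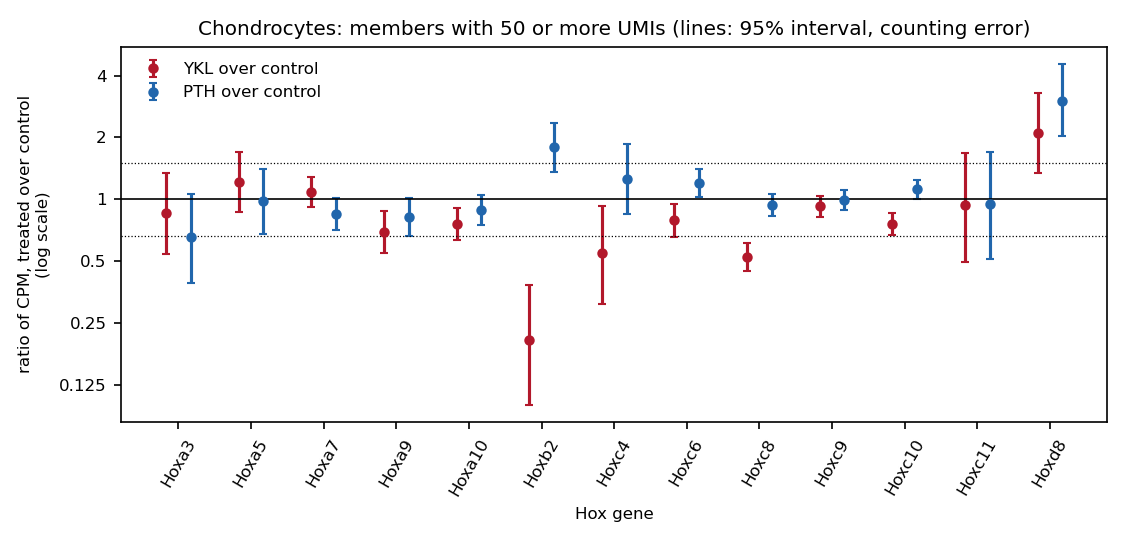
Ratio of CPM in chondrocytes (log axis) of the 13 Hox genes with at least 50 UMIs, for YKL over control and PTH over control, with exact 95% counting intervals as lines and dotted lines at 1.5-fold. Hoxd8 stands at 2.10 in YKL and 3.03 in PTH, and Hoxb2 at 0.207 in YKL and 1.79 in PTH.

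The libraries differed in the makeup of their cartilage. The chondrocytes fell into 6 clusters, and the clusters 3 and 13 (led by Ucma, Mia and Cnmd, and by Ibsp, Ucma and Omd) held 1.82% and 1.30% of YKL chondrocytes, 19.4% and 12.9% of PTH and 24.7% and 5.25% of control chondrocytes. Clusters 2 and 14, led by Ibsp and Col10a1, a marker of hypertrophic cartilage, held 39.2% and 26.5% of YKL, 16.9% and 10.53% of PTH and 13.6% and 6.61% of control chondrocytes. Hoxb2 was highest in cluster 3, at 16.3 CPM in PTH and 12.2 CPM in control, and cluster 13, at 16.7 and 8.37 CPM. Hoxc8 was also highest there, at 49.6 and 53.3 CPM in cluster 3 and 58.1 and 49.3 CPM in cluster 13. Clusters 3 and 13 held too few YKL cells to be compared. Over the other 4 clusters, the YKL over control ratio was 0.649 for Hoxb2, 0.702 for Hoxc8 and 0.606 for Hoxc4 without weights. With these 4 clusters weighted equally it was 0.783, 0.732 and 0.861, so that 0 members were lower at 1.5-fold. Hoxd8 had a ratio of 2.05 over these 4 clusters without weights and 2.57 with them in YKL over control, and 3.19 in PTH over control with all 6 clusters weighted equally. It was higher in 4 of 4 and 6 of 6 clusters with enough cells. In YKL over control, Hoxb2 and Hoxc8 were each higher in 2 and lower in 2 of the 4 clusters. The clusters come from the same libraries and are not replicates. Hoxb2 had a weighted ratio of 1.91 in PTH over control and was higher in 6 of 6 clusters. The summed level of the 14 fibroblast markers in chondrocytes was 717 CPM in YKL, 1337 CPM in PTH and 1450 CPM in control, and that of the 7 tendon markers 186, 648 and 510 CPM; their part in these ratios was not tested.

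**Figure D5:**
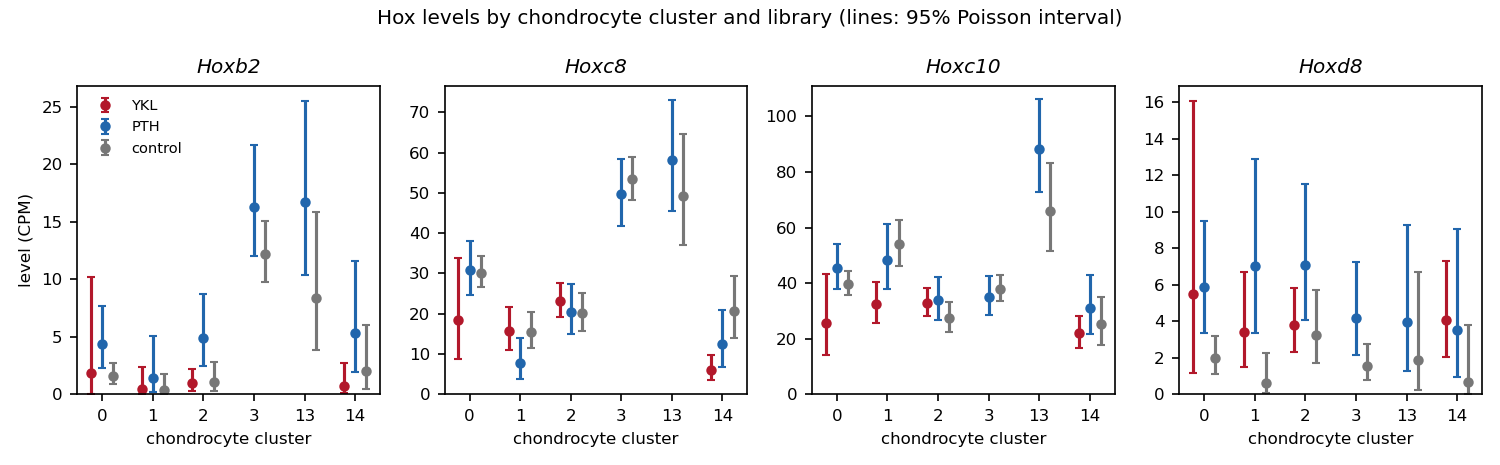
Level of Hoxb2, Hoxc8, Hoxc10 and Hoxd8 in CPM (vertical axes) by chondrocyte cluster and library, with exact Poisson 95% intervals as lines. Hoxb2 and Hoxc8 are highest in clusters 3 and 13, where YKL has no point because these hold 7 and 5 YKL chondrocytes.

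Treatment and control were compared by the same rule in the other classes. In YKL over control endothelial cells 0 of 4 members passed, against 13.4% higher and 6.48% lower of all genes, and the Hox sum ratio was 1.18 (0.992 to 1.40). Between PTH and control endothelial cells 2 of 11 were higher and 2 lower, against 9.47% and 2.63% of all genes. Hoxb5 had a ratio of 2.80 (1.36 to 6.51), Hoxb4 2.10 (1.30 to 3.52), Hoxd8 0.639 (0.469 to 0.873) and Hoxd9 0.659 (0.412 to 1.06). Hoxb5 was under the threshold, at 1.23, when each cell counted equally. In YKL over PTH endothelial cells 3 of 9 were higher and 0 lower, against 9.09% and 10.4% of all genes, with Hoxb7 at 1.73 (1.08 to 2.69), Hoxb3 at 1.59 (0.764 to 3.07) and Hoxd8 at 1.52 (0.934 to 2.38). This count was 0 when the barcodes marked as doublets were kept. Between PTH and control fibroblasts 0 of 7 members passed, against 10.1% higher and 7.17% lower of all genes, and the Hox sum ratio was 0.871 (0.777 to 0.977). Between PTH and control mural cells 1 of 3 was higher, Hoxc8 at 1.79 (1.02 to 3.19), and 0 lower, against 11% and 4.13% of all genes, and the Hox sum ratio was 1.27 (1.06 to 1.53).

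The transcription factors that set limb position otherwise were examined beside the Hox genes from a list of 31 genes. In endothelial cells 4 of 19 list members with enough UMIs were higher than in chondrocytes in every library (Msx1, Tbx3, Meox1 and Meox2) and 8 were lower (Prrx2, Shox2, Dlx5, Irx3, Irx5, Tbx18, Gli3 and Pitx1), against 20.9% higher and 7.27% lower of all genes. The higher share was thus near that of all genes. Meox1, a somite homeobox gene, had 165, 139 and 111 CPM in YKL, PTH and control endothelial cells, against 0.09, 0.34 and 0.20 CPM in chondrocytes. Shox2, required for the growth of the upper limb bones, had 4.66, 8.17 and 9.13 CPM in endothelial cells and 132, 147 and 196 CPM in chondrocytes. Pitx1, which sets hindlimb identity, had 0, 3.27 and 1.52 CPM in endothelial cells and 22.3, 18.7 and 21.0 CPM in chondrocytes. Tbx5, the T-box gene of the forelimb, had 0, 0.26 and 0.12 CPM in chondrocytes of the same libraries, from 0, 3 and 3 UMIs.
In fibroblasts 6 of 17 list members were higher (En1, Prrx1, Tbx15, Meox2, Zfp503 and Emx2) and 5 lower (Shox2, Dlx5, Dlx6, Irx3 and Irx5), against 19.2% and 7.35% of all genes. In mural cells 7 of 18 were higher (Prrx1, Msx1, Tbx2, Tbx3, Tbx18, Meox2 and Zfp503) and 3 lower (Prrx2, Dlx5 and Pitx1), against 18.5% and 7.62% of all genes. Prrx1, a marker of limb mesenchyme, reached 709 CPM in PTH and 638 CPM in control mural cells, against 71.8 and 73.6 CPM in chondrocytes. In PTH tendon cells 5 of 16 were higher (En1, Prrx1, Prrx2, Tbx15 and Meox2) and 5 lower (Shox2, Dlx5, Dlx6, Irx3 and Irx5), against 16.7% and 11.1% of all genes.
Of the 10 Hox cofactor genes, which encode the Pbx and Meis partners of Hox proteins and related factors, Pbx3 was higher in endothelial and mural cells than in chondrocytes, and Meis2 was lower in endothelial and tendon cells. Pbx3 had 34.9, 30.6 and 19.8 CPM in YKL, PTH and control endothelial cells, against 5.89, 6.34 and 6.44 CPM in chondrocytes. Meis2 had 6.99, 9.80 and 4.57 CPM in YKL, PTH and control endothelial cells, against 24.2, 24.6 and 28.0 CPM in chondrocytes. Of the 24 chromatin regulators of Hox genes, 3 of 20 were higher in endothelial cells (Phc2, Kmt2a and Ezh1) and 1 lower (Cbx8), both shares below the 20.9% and 7.27% of all genes. Kmt2a, which maintains Hox activity, had 93.2, 115 and 85.2 CPM in YKL, PTH and control endothelial cells, against 31.2, 40.3 and 37.6 CPM in chondrocytes. Of the 8 genes of anterior and cranial identity, only Barx2 had enough UMIs, and it was higher in fibroblasts and tendon cells than in chondrocytes.

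In chondrocytes, 3 of 16 limb-position genes were higher in YKL than in control (Tbx3, Irx3 and Irx5) and 4 lower (Prrx1, Prrx2, Meox2 and Zfp503), against 10.6% higher and 10.3% lower of all genes. Irx5, which with Irx3 patterns the proximal hindlimb, had 135 CPM in YKL, 55.7 CPM in PTH and 29.6 CPM in control chondrocytes. The ratio over control was 4.55 (4.16 to 4.98) in YKL and 1.88 (1.69 to 2.09) in PTH. Irx3 had 34.4, 16.96 and 8.35 CPM, with ratios of 4.12 (3.47 to 4.91) in YKL and 2.03 (1.66 to 2.48) in PTH. Irx5 was highest in cluster 14, at 397, 335 and 321 CPM in YKL, PTH and control, and that cluster held 26.5%, 10.53% and 6.61% of the chondrocytes of these libraries. Of the 17 list members compared between PTH and control chondrocytes, 5 were higher (En1, Msx1, Irx3, Irx5 and Meox2) and 0 lower, against 6.1% and 3.32% of all genes. Meox2 had a ratio of 3.18 (2.57 to 3.94) and was higher in 6 of 6 clusters. Pitx1 had ratios of 1.06 (0.911 to 1.24) in YKL and 0.891 (0.757 to 1.05) in PTH over control.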

How the data were processed

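Gene expression was measured in single cells of 3 callus libraries, each from a different group at day 7. Per the labels' protocols, dissection avoided the bone marrow and collagenase freed the cells. Droplet libraries were made with a 3′ v3 kit. What the authors deposited are unnormalized counts of UMIs for each gene in each barcode. Per the file headers, the counting tool was Cell Ranger 4.0.0. The submitters' processing notes also name Seurat and the build mm10. Whether counting used introns or strand was not recorded in the labels or headers.

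A barcode was kept if it had 500 or more detected genes and no more than 10% of its UMIs from mitochondrial genes, after removal of the barcodes marked by Scrublet in scanpy 1.11.5. It marked 5 of 1041 YKL, 1 of 4301 PTH and 45 of 4918 control barcodes (0.48%, 0.023% and 0.915%), so the caller is taken not to have worked in the PTH library and doublets remain. Counts were scaled to 10000 UMIs per cell, reduced to 2000 variable genes and 30 components, and clustered (15 neighbours, Leiden resolution 0.8). Clusters were named from marker lists and left unnamed where fewer than 3 markers were detected, where another list led, or where haemoglobin exceeded 10% of UMIs. The rule that split osteoblast-like cells off by clustering again at resolution 1.2 was chosen after the clusters had been seen.

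UMIs were summed per class and library and given as CPM. Intervals are exact at 95% (Poisson for sums, conditional binomial for ratios, Clopper-Pearson for shares). A gene was compared with at least 50 UMIs, and a count of 0 was held at 3 counts per library for a bound. No test was run, since each group is a single library. The smallest two-sided sign-flip p over 3 libraries would be 0.25. Values by library are named for every Hox gene with at least 50 UMIs over the 6 classes, and the others are given by count and range. Results on a few listed genes are not reported here. From each other list the 6 most abundant members and any past the class threshold could be named, and limb-position genes past the treatment threshold were named after their values were seen. An alternative that kept the cartilage clusters held by both libraries was added after seeing the data. The other alternatives changed the filters, resolution, naming, doublet removal, scaling and thresholds. The procedure was tested on simulated data. The members, lists and tests were chosen with earlier results of these data known. Python 3.11.15, scipy 1.17.1 and igraph 0.11.9 were used.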

Additional observations from a re-analysis of the deposited data

Results flagged for a closer look

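Hoxd8 differed in direction between cell classes under the same contrast. In PTH over control chondrocytes its ratio was 3.03 (2.03 to 4.55), from 5.40 CPM in PTH and 1.78 CPM in control. In PTH over control endothelial cells its ratio was 0.639 (0.469 to 0.873), from 38.4 CPM in PTH and 60.1 CPM in control. In chondrocytes Hoxd8 was above background in 1 of the 3 libraries, and in endothelial cells in all 3. The difference between these ratios was not tested, since each rests on 1 library per group.

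The barcodes left out by the filters also carried Hox transcripts. In the PTH library, 3374 such barcodes had a summed Hox level of 76 CPM (69.8 to 82.6), against 33.2 CPM (30.7 to 35.8) in the 5113 left-out barcodes of the control library. The 897 left-out YKL barcodes had 27.6 CPM (22.5 to 33.4). Their median depth was 2171 UMIs in YKL, 1015 in PTH and 3831 in control. Hoxb genes held 20%, 20.4% and 20.9% of these Hox UMIs in YKL, PTH and control, and Hoxc genes 34.3%, 34.3% and 33.5%.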

How the results depend on the processing

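Of 831 values recomputed for 73 results under 19 settings, 730 kept their direction and stayed close to the reported value, 100 moved and 1 reversed. The reversed one was the PTH over control Hox sum in endothelial cells, 1.12 as reported and 0.968 with a mitochondrial maximum of 5%. The cause of these shifts was not tested.

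For the summed Hox level, YKL chondrocytes gave 152 CPM with a minimum of 200 genes and 175 CPM at resolution 0.4. PTH chondrocytes gave 224 CPM at resolution 0.4, 206 CPM at resolution 1.2, 203 CPM when Hox and positional genes were left out of clustering, 227 CPM as a mean over cells and 230 CPM after thinning. Control chondrocytes gave 216 CPM at resolution 0.4. PTH endothelial cells gave 369 CPM at the 5% maximum, and control endothelial cells 410 CPM with classes set by marker score. Thinning gave 373 CPM in PTH and 431 CPM in control fibroblasts, and the mean over cells gave 454 CPM in control mural cells.

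The Hox sum ratio in chondrocytes was, for YKL over control, 0.737 with a minimum of 200 genes, 0.858 over the 4 clusters held by both libraries and 0.88 with these weighted equally. For YKL over PTH it was 0.844 over these 4 clusters, 0.842 with them weighted equally and 0.687 as a mean over cells. For PTH over control it was 1.11 as a mean over cells and 1.12 after thinning. YKL over control endothelial cells gave 0.935 by marker score, in the other direction than the value reported.

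The counts after thinning are limited by construction, since fewer members keep the 50 UMIs needed: 7 in place of 13 for PTH over control chondrocytes, including 0 of the 3 reported, and 2 in place of 11 in endothelial cells, including 0 of the 4. The number of members past 1.5-fold in YKL over control chondrocytes, 4 as reported, was 2 with a minimum of 1000 genes, 1 at resolution 0.4, 1 with clusters weighted equally and 7 at 20 UMIs. For PTH over control, 3 as reported, it was 0 after thinning and 7 at 20 UMIs. For YKL over PTH, 4 as reported, it was 2 by marker score, 2 with clusters weighted equally and 1 after thinning. In endothelial cells the PTH over control count, 4 as reported, was 2 at the 5% maximum, 2 with doublets kept and 1 after thinning. The YKL over PTH count, 3 as reported, was 0 with doublets kept, 6 as a mean over cells and 5 at 20 UMIs. The YKL over control count, 0 as reported, was 1 with Hox-free clustering, 1 by marker score and 3 at 20 UMIs. For PTH over control in fibroblasts, 0 as reported, it was 1 with Hox-free clustering, 1 as a mean over cells and 2 at 20 UMIs. For PTH over control in mural cells, 1 as reported, it was 3 at a mitochondrial maximum of 20%, 2 by marker score, 0 after thinning and 3 at 20 UMIs. The number past 2-fold against chondrocytes was 0 in fibroblasts (4 as reported) and 2 in mural cells (6 as reported) after thinning. In tendon cells (2 as reported) it was 0 at the 5% maximum, 1 after thinning and 5 at 20 UMIs. The number of Hox genes counted at 10 UMIs was 7 in YKL endothelial and 8 in control fibroblast cells, against 11 and 13 at 5 UMIs.

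The shares pooled over libraries were 65.9% Hoxc and 54.6% paralog groups 9 and 10 in chondrocytes. The chondrocyte Hoxc share was 67.3% at resolution 0.4 and 64.8% after thinning, and the share of groups 9 and 10 was 52.6% with a minimum of 1000 genes, 53.4% at resolution 0.4 and 53.5% with doublets kept. The endothelial Hoxc share, 4.24% as reported, was 2.44% at the 5% maximum, 2.61% by marker score, 2.97% after thinning and 2.25% to 4.87% when 1 library was left out, with the lowest without PTH. The endothelial share of groups 9 and 10, 12.4%, was 10.2% at the 5% maximum and 10.3% after thinning. The fibroblast Hoxc share, 58.3%, was 61.1% after thinning and 55.7% to 58.9% with 1 library left out. The tendon Hoxc share, 64.7%, was 55.4% after thinning, and its share of groups 9 and 10, 59.7%, was 53.5% at the 5% maximum and 56.2% after thinning. The osteoblast Hoxc share, 56.2%, was 62.8% with a minimum of 1000 genes and 63.6% by marker score, and its share of groups 9 and 10, 48.1%, was 54.9% by marker score and 44.1% to 58.5% with 1 library left out.

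Classes that fell under 50 cells, or that were not found, gave no value under a setting. This applied to many results at the 5% maximum, and to the osteoblast class under most settings. No paired analysis was possible because each group has 1 library. In the YKL library 52 endothelial cells were kept, and precision there is limited by the number of cells.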

Other observations

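Noncoding transcripts of the Hox clusters also differed between endothelial cells and cartilage. Hoxb3os, which overlaps Hoxb2 and Hoxb3 on the opposite strand, had 18.6 CPM in YKL, 17.2 CPM in PTH and 16.7 CPM in control endothelial cells, against 0.178, 1.80 and 1.18 CPM in chondrocytes, and it reached 58.2 CPM in PTH and 38.9 CPM in control mural cells. Hoxd3os1, opposite Hoxd3 and Hoxd4, had 27.9, 29.4 and 24.3 CPM in YKL, PTH and control endothelial cells, against 2.14, 2.31 and 0.527 CPM in chondrocytes. Whether counting used strand was not recorded, so it is not known whether reads of these transcripts were kept apart from those of their opposite genes. Schwann-like cells, the glia of peripheral nerve, had a summed Hox level of 111 CPM (77.4 to 153) in PTH and 75.6 CPM (43.2 to 123) in control. Of it, 52.8% and 68.8% came from Hoxb genes, in 39 PTH and 26 control cells. Hoxb4 had 5 UMIs in PTH, where it was not above background, and 7 UMIs from 3 cells in control, where it was.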
